A study of Homo sapiens with 12 samples.

Results

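Mitochondrial ribosomal protein genes were followed after a low dose of Nnm in HK-2, a human kidney cell line labelled as immortalised proximal tubular epithelium. The genes were taken by symbol, as those that begin with MRPL or MRPS and a digit, and each was read from its brightest probe set by the mean of the 12 arrays. A probe set of their own named 77 such genes, and 76 of them were bright enough to test (49 with large subunit symbols and 27 with small subunit symbols) among 10907 genes tested. The remaining gene, MRPL45P2, a pseudogene, lay between 2.91 and 3.02 on the log2 scale on every array. The 76 include MRPL20-AS1, an antisense RNA gene that carries the same symbol stem. The study belongs to a survey of compounds toxic to the kidney, and its 12 arrays form 4 groups of 3 biological replicates: low dose Nnm for 24 h, vehicle control for 24 h, low dose Nnm for 48 h and vehicle control for 48 h. All cultures were grown in the same medium with EGF, hydrocortisone, insulin, transferrin and selenite, and each Nnm group is set against the vehicle control of its own time. The compound is known here only by its label Nnm, the dose only as low, and the cells are a single line.

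Mitochondria carry their own ribosome, which translates the few proteins encoded in mitochondrial DNA, all of them core parts of the respiratory chain and ATP synthase. Every protein of that ribosome is encoded in the nucleus, made in the cytosol and imported, and joins the mitochondrially encoded ribosomal RNAs as a small subunit, which reads the messenger RNA, or a large subunit, which joins amino acids. Some of these proteins descend from bacterial ribosomal proteins and others have no bacterial relative. Proximal tubule cells in the kidney rely on mitochondrial respiration for transport.

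Arrays were comparable in range, with 40.4% to 40.8% of probe sets above a log2 value of 4. Both Nnm arrays of replicate 2 stood apart: on the first principal component (50.3% of the variance) they lay at -1.55 and -3.28, against -43.2 to -31.2 for the other Nnm arrays and 18.6 to 34.4 for the controls. Replicate 2 also had the widest gap between probe sets at the 5′ and 3′ ends of ACTB in all 4 groups (-1.17 to -1.09, against -0.86 to -0.74 on the other arrays). All 5 epithelial markers exceeded 4 on every array. Of the proximal tubule markers analysed, DPP4 and PAX8 did so, and LRP2, CUBN, SLC34A1, AQP1, ANPEP and GGT1 exceeded 4 on no array. DPP4 was higher with Nnm at both times (adjusted p = 0.022 and 0.00659), and PAX8 at 24 h (adjusted p = 0.0398). Of the fibroblast markers, COL1A1 and DCN were above 4 on every array, with COL1A1 lower at 48 h (adjusted p = 0.0491), and COL1A2, COL3A1 and PDGFRB were at 3.13 or below. Endothelial markers did not exceed 4.66 and leukocyte markers 3.05 on any array. The part of these marker differences in the results was not tested.

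Taken over both times, 43 of the 76 mitochondrial ribosomal protein genes fell with Nnm and 0 rose (limma, adjusted p under 0.05 over all genes tested). That is 56.6% of them, whereas 16.9% of all genes tested were lower and 20.4% higher. Their median change was -0.29 on the log2 scale, against 0.02 for all genes, and 70 of the 76 lay below 0. In 27 genes the 3 Nnm arrays lay below the 3 control arrays at each time, a pattern found in 9.73% of all genes, and 0 genes had the opposite pattern (12.4% of all genes). In bulk RNA, fewer cells of a kind and less RNA per cell cannot be told apart in such values. With any single array left out the count of 43 stayed between 31 and 48. In every such fit 29 of the 43 genes kept their call. The shares of all genes in those fits are not given here. Without both Nnm replicate 2 arrays 51 genes fell and MRPL10 rose (21.3% and 25.4% of all genes). The replicate numbers pair the arrays, and with the number as a block 55 genes fell and 2 rose (24.6% and 28% of all genes), namely MRPL45 and MRPL10 (adjusted p = 0.0241 and 0.0382).

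**Figure D1:**
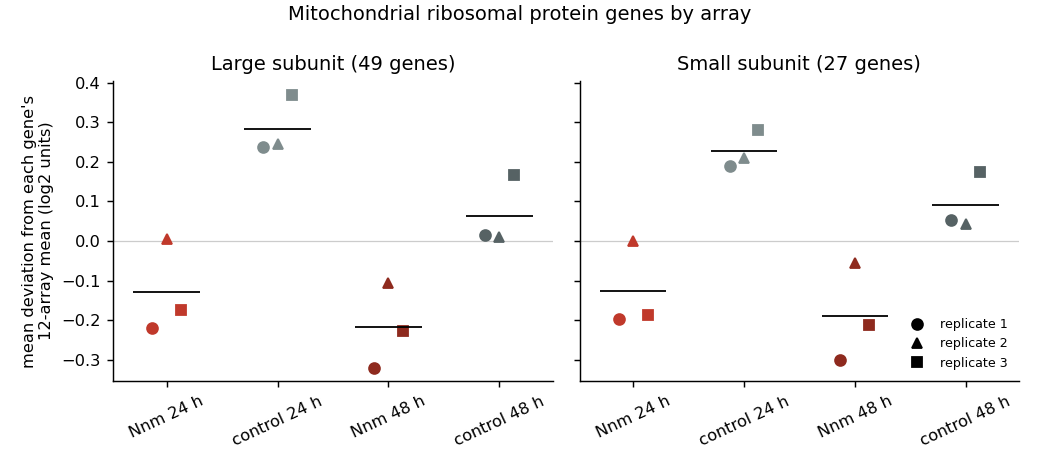
Mean deviation of the mitochondrial ribosomal protein genes from their own 12-array mean (log2 units) on each array, by group, for the 49 large subunit and the 27 small subunit genes. Each point is an array, with its shape giving the replicate number, and lines are group means. Nnm arrays at 24 h lie between -0.22 and 0.005 for the large subunit, below the 24 h controls at 0.238 to 0.37.

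At 24 h, 31 of the 76 genes fell and 0 rose, 40.8% of them against 8.85% of all genes lower and 10.6% higher. The median change was -0.37 (all genes 0.01), with single genes between -1.50 and 0.38. Groups did not overlap in 44 genes that were lower with Nnm and in 1 that was higher, against 18.7% and 21.1% of all genes. With the replicate number as a block 44 fell and MRPL45 rose (18.8% and 20% of all genes). Paired by replicate number, 68 genes were lower in all 3 pairs, a count not made over all genes. The pair medians were -0.41, -0.21 and -0.46 for replicates 1, 2 and 3. Replicate 2 thus gave the smallest difference, with 70 of 76 genes lower in that pair. The number of calls hung on single arrays. Shares of all genes with 1 array left out are not given here, so those counts are not a result about the members. Leaving out Nnm replicate 1 gave 4 calls and leaving out Nnm replicate 3 gave 3, while dropping control replicate 1 gave 12 and dropping control replicate 3 gave 1. Without the Nnm replicate 2 arrays 39 fell and 0 rose (15.9% and 18.1% of all genes). MRPL12 was the one gene called at 24 h in every fit with 1 array left out, while the median stayed between -0.43 and -0.33.

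At 48 h, 12 of the 76 genes fell and 0 rose, 15.8% of them against 5.34% of all genes lower and 8.45% higher. The median change was -0.24 (all genes 0.02), with single genes between -1.12 and 0.22, and 69 genes lay below 0. Groups did not overlap in 33 genes, all lower with Nnm, where 15.8% of all genes were lower in this way and 20.3% higher. The pair medians were -0.30, -0.11 and -0.31, again smallest in replicate 2. With the replicate number as a block 30 genes fell and 0 rose (13.7% and 18.5% of all genes), and without the Nnm replicate 2 arrays 23 fell and 0 rose (12.5% and 16.4%). No call at 48 h held in every fit with 1 array left out. Dropping Nnm replicate 1 gave 1, dropping control replicate 1 gave 2, and dropping replicate 3 of either group gave 0. The shares of all genes in those fits are not given, so these counts are not a result about the members.

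Of the genes called lower, 10 were called at both times: MRPL2, MRPL12, MRPL39, MRPL47, MRPL49, MRPL54, MRPL58, MRPS9, MRPS12 and MRPS25. With the mean of their probe sets MRPL47 (adjusted p = 0.112 and 0.172) and MRPS12 (adjusted p = 0.0526 and 0.134) passed at neither time. The other MRPL47 probe set averaged 4.01, close to the filter, against 12.02 for the one used, and changed by -0.22 and -0.15. With no filter on dim probe sets MRPL47 and MRPS12 also missed the threshold at both times. So did MRPL1 and MRPL2 at 24 h and MRPL39 and MRPS25 at 48 h (adjusted p from 0.0552 to 0.117). In that setting 17 of the 31 calls at 24 h and 8 of the 12 at 48 h were kept, so further calls at 24 h were lost. The share of all genes called in it is not given here. In the main fit a further 21 genes passed only at 24 h, and MRPS22 and MRPS23 only at 48 h. These counts do not show that the changes differ: the difference between the 48 h and the 24 h change passed the threshold in 0 of the 76 genes and in 0% of all genes by limma, with 3 of the 76 under an unadjusted p of 0.05. In all, 70 of the 76 changes had the same sign at both times, and 46 genes were lower in all 6 pairs. Neither count was made over all genes.

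**Figure D2:**
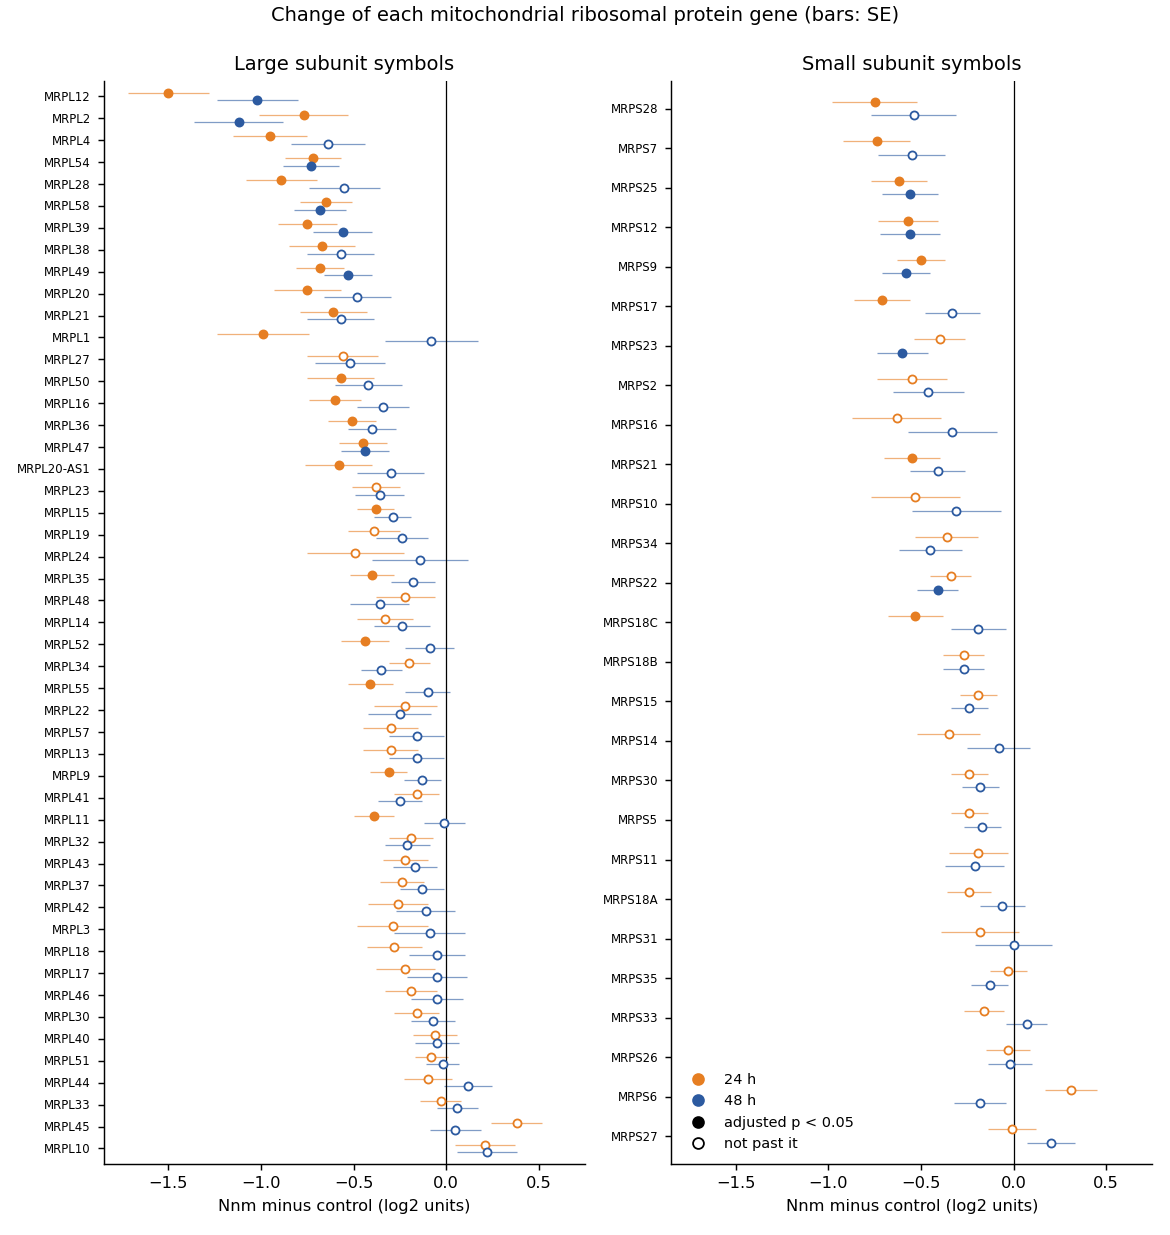
Change with Nnm against control (log2 units) at 24 h (orange) and 48 h (blue) for each of the 76 genes, large subunit symbols on the left and small on the right. Bars are standard errors, and filled points passed the limma threshold. Most points lie below 0 at both times, from -1.50 to 0.38 at 24 h and from -1.12 to 0.22 at 48 h.

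MRPL12, the counterpart of the bacterial stalk protein that recruits translation factors to the ribosome, changed the most at 24 h. It read 8.36, 8.65 and 8.26 in Nnm cells and 10.08, 9.46 and 10.22 in control cells at 24 h, and 8.49, 8.74 and 8.42 in Nnm cells and 9.75, 9.20 and 9.78 in control cells at 48 h. All Nnm arrays lay below all control arrays at both times, and control replicate 2 was the lowest control at each. The gene was 2.83-fold lower at 24 h (log2 change -1.50, SE 0.22, adjusted p = 0.00563) and 2.03-fold lower at 48 h (-1.02, SE 0.22, adjusted p = 0.0164).

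MRPL2, MRPL4 and MRPL28 are large subunit proteins with a bacterial counterpart. MRPL2, whose bacterial counterpart lies beside the peptidyl transferase centre, had 7.19, 6.75 and 6.90 in Nnm cells and 8.01, 7.43 and 7.72 in control cells at 24 h. At 48 h it had 6.82, 6.34 and 5.94 in Nnm cells, against 7.79, 7.13 and 7.52 in control cells. It fell by 1.12 on the log2 scale at 48 h (SE 0.24, adjusted p = 0.0178), the largest change at that time, and by 0.77 at 24 h (adjusted p = 0.0498, and 0.103 without the Nnm replicate 2 arrays). With probe sets that may match several transcripts left out, MRPL2 was read by another probe set, changed by -0.58 at 24 h and -0.54 at 48 h, and did not pass at either time. MRPL4, a tunnel wall protein, had 8.25, 7.92 and 8.37 in Nnm cells and 9.26, 8.74 and 9.40 in control cells at 24 h (-0.95, SE 0.20, adjusted p = 0.0129, and 0.0507 without probe sets that may match several transcripts). Its change at 48 h was -0.64 (adjusted p = 0.0561, and 0.00644 with the replicate block). MRPL28 changed by -0.89 at 24 h (adjusted p = 0.0131) and -0.55 at 48 h (adjusted p = 0.0734).

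MRPL58 and MRPL54 changed by nearly equal amounts at both times. MRPL58 is related to bacterial release factors, acts as a peptidyl-tRNA hydrolase and is built into the large subunit. It read 8.97, 9.25 and 8.96 in Nnm cells against 9.55, 9.75 and 9.83 in control cells at 24 h, and 8.43, 8.83 and 8.50 in Nnm cells against 9.16, 9.20 and 9.44 in control cells at 48 h. The Nnm and control arrays did not overlap at either time, with Nnm replicate 2 the highest of its group in both. Its changes were -0.65 (SE 0.14, adjusted p = 0.0152) and -0.68 (SE 0.14, adjusted p = 0.0159). MRPL54, a protein without a bacterial counterpart, read 8.93, 9.22 and 8.80 in Nnm cells and 9.65, 9.66 and 9.80 in control cells at 24 h, then 8.52, 9.06 and 8.72 in Nnm cells and 9.38, 9.46 and 9.64 in control cells at 48 h. Again the groups did not overlap (-0.72, adjusted p = 0.0143 at 24 h, and -0.73, adjusted p = 0.0159 at 48 h). MRPL49 and MRPL39, which likewise have no bacterial ribosomal counterpart, changed by -0.68 and -0.75 at 24 h (adjusted p = 0.0111 and 0.013) and by -0.53 and -0.56 at 48 h (adjusted p = 0.0294 and 0.0405).

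**Figure D3:**
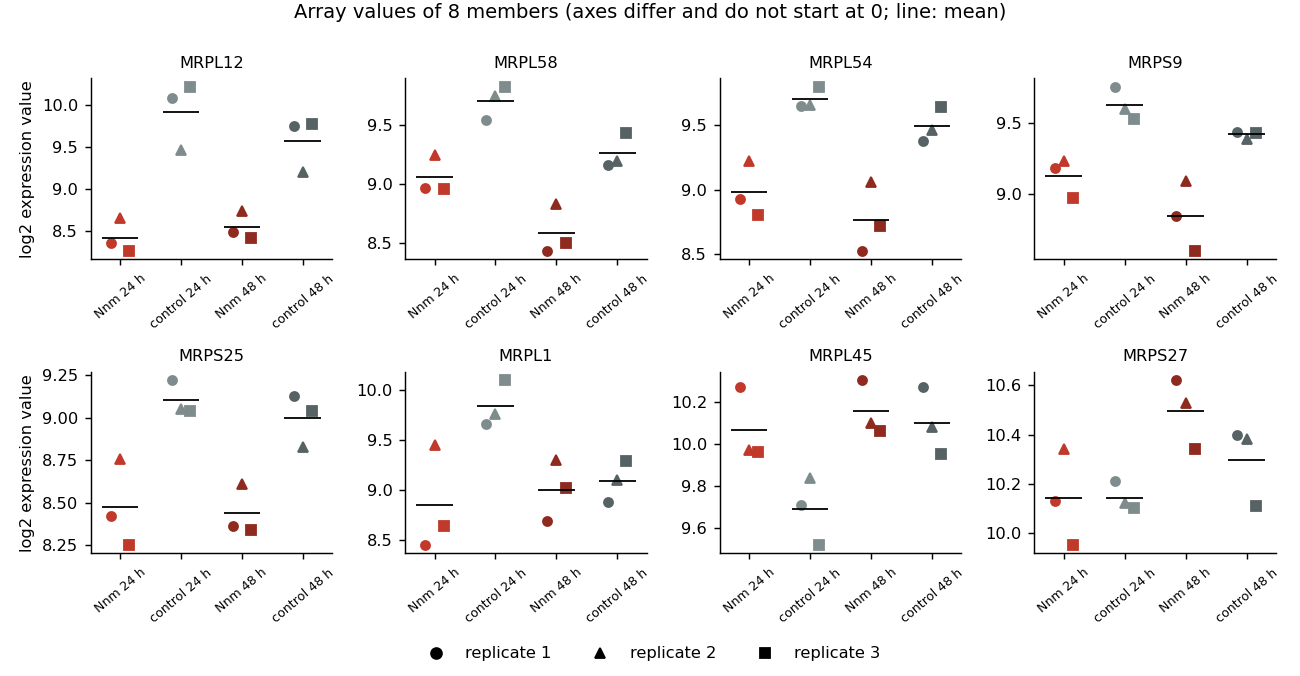
Log2 values of 8 genes on each of the 12 arrays, by group, with a line at each group's mean and the point's shape giving the replicate number. MRPL12, MRPL58, MRPL54, MRPS9 and MRPS25 have every Nnm array below every control array of the same time, whereas MRPL1 and MRPL45 overlap at 48 h and MRPS27 at both times.

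Several small subunit proteins fell at 1 or both times. MRPS17, counterpart of a bacterial protein that binds small subunit RNA early in assembly, had 9.22, 9.57 and 9.31 in Nnm cells and 9.95, 10.03 and 10.25 in control cells at 24 h (-0.71, SE 0.15, adjusted p = 0.0124). Its change at 48 h was -0.33 (adjusted p = 0.151). MRPS9, whose bacterial counterpart reaches the decoding site, had 8.84, 9.09 and 8.59 in Nnm cells and 9.44, 9.39 and 9.43 in control cells at 48 h, with no overlap. It fell by 0.58 at 48 h (adjusted p = 0.022) and by 0.50 at 24 h (adjusted p = 0.0279). MRPS23 and MRPS25, small subunit proteins without a bacterial counterpart, fell by 0.60 and 0.56 at 48 h (adjusted p = 0.0196 and 0.0311). At 24 h MRPS25 fell by 0.62 (adjusted p = 0.0184), but its probe sets disagreed in sign there and their mean changed by -0.23 (adjusted p = 0.109). The probe set with the other sign changed by 0.10 and averaged 4.5, close to the filter, against 8.75 for the one used. MRPS23 changed by -0.40 at 24 h (adjusted p = 0.06, and 0.0176 with the replicate block). MRPS22, a mitochondria-specific small subunit protein, changed by -0.34 at 24 h (adjusted p = 0.0516, and 0.0177 with the replicate block) and fell by 0.41 at 48 h (adjusted p = 0.0341).

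A few genes did not share the direction. MRPL45, which tethers the ribosome's tunnel exit to the inner membrane, had 10.27, 9.97 and 9.96 in Nnm cells and 9.71, 9.84 and 9.52 in control cells at 24 h, and 10.30, 10.10 and 10.06 in Nnm cells and 10.27, 10.08 and 9.95 in control cells at 48 h. The groups did not overlap at 24 h and did at 48 h, and the changes were 0.38 (adjusted p = 0.0726, and 0.015 with the replicate block) and 0.05 (adjusted p = 0.831). MRPL10, the stalk base that holds MRPL12, changed by 0.21 at 24 h and 0.22 at 48 h (adjusted p = 0.364 and 0.363). MRPS27, an RNA-binding pentatricopeptide repeat protein, changed by -0.01 and 0.20 (adjusted p = 0.98 and 0.313). MRPL33, MRPL44, MRPS26 and MRPS33 were the genes of each subunit nearest to 0 over both times, with mean changes of 0.01, 0.01, -0.02 and -0.05. MRPL1, the protein of the mobile stalk at the ribosome's exit site, differed most between times: it changed by -0.99 at 24 h (SE 0.25, adjusted p = 0.0245) and by -0.08 at 48 h (adjusted p = 0.856). The difference of those changes, 0.91, did not pass (SE 0.36, adjusted p = 0.754). MRPS6 ran the other way, with 0.31 at 24 h and -0.18 at 48 h (difference -0.50, adjusted p = 0.754).

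The comparison of the subunits showed falls in both. At 24 h 23 of 49 large and 8 of 27 small subunit genes fell, with medians of -0.38 and -0.35. At 48 h 7 of 49 and 5 of 27 fell, with medians of -0.24 and -0.27, and over both times 26 of 49 and 17 of 27 fell. Of all genes tested, 8.85% were lower at 24 h, 5.34% at 48 h and 16.9% over both times. Their medians were 0.01, 0.02 and 0.02. The large minus small difference of medians, taken before rounding, was -0.04 at 24 h and 0.04 at 48 h. At 24 h the large minus small mean deviation within single arrays ran from -0.022 to 0.012 with Nnm and 0.034 to 0.089 in controls. At 48 h it ran from -0.051 to -0.015 with Nnm and -0.039 to -0.008 in controls. MRPL20-AS1 is counted in the large subunit by its symbol. With it left out, and MRPS30 and MRPS18A counted as large by their place in the ribosome's structure, the median differences were 0.01 and 0.11. Genes with a bacterial counterpart (45 genes) had medians of -0.41 at 24 h and -0.25 at 48 h with 29 lower over both times, and genes without one (30 genes) had -0.24 and -0.16 with 13 lower. No test was run between these classes.

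Of 50 cytosolic ribosomal proteins, which form the ribosome of the cytoplasm, 0 passed in either direction at 24 h or at 48 h by limma. Under an unadjusted p of 0.05, 1 passed at 24 h and 0 at 48 h. The median of the 50 was 0.04 at both times. With the replicate block 0 fell and 1 rose at each time, against 18.8% and 20% of all genes at 24 h and 13.7% and 18.5% at 48 h. Complex I genes with NDUF symbols, which build the first enzyme of the respiratory chain, had medians of -0.28 at 24 h and -0.30 at 48 h. Of 41 such genes 8 fell at 24 h and 10 at 48 h, and 0 rose, where 8.85% of all genes were lower at 24 h and 5.34% at 48 h. With the replicate block 17 fell and 1 rose at 24 h, and 19 fell and 0 rose at 48 h (18.8% and 20% of all genes at 24 h, 13.7% and 18.5% at 48 h).

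**Figure D4:**
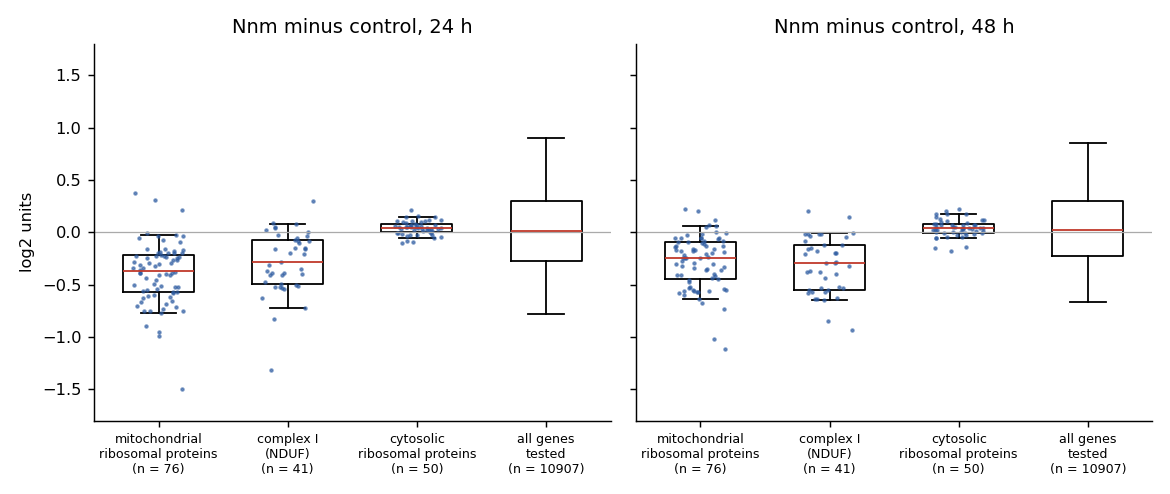
Change with Nnm against control (log2 units) at 24 h (left) and 48 h (right) for the 76 mitochondrial ribosomal protein genes, 41 complex I genes, 50 cytosolic ribosomal genes and all 10907 genes tested. Points are genes, the box spans the middle quartiles with the median as a red line, and whiskers reach the 5th and 95th percentiles. The medians of the mitochondrial ribosomal genes are -0.37 and -0.24, and those of the cytosolic ones 0.04 at both times.

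In control cells the mitochondrial ribosomal protein genes lay lower at 48 h than at 24 h, with a median change of -0.19 and 66 of 76 below 0, but 0 passed the limma threshold (0.0458% of all genes were called lower and 0.0825% higher), and 16 had an unadjusted p under 0.05. With the replicate block 8 fell and MRPL45 rose (4.6% and 3.87% of all genes). The 48 h control arrays lay below the 24 h control arrays in 23 of the genes and above in 3, against 14.2% and 12.1% of all genes. MRPL16 and MRPL52, both large subunit proteins, changed by -0.49 each (adjusted p = 0.179 and 0.176, and 0.0388 and 0.0405 with the replicate block). In Nnm cells the median change at 48 h against 24 h was -0.09, with 0 genes past the limma threshold (0.055% of all genes lower and 0.0642% higher), 4 under an unadjusted p of 0.05. The 48 h Nnm arrays lay below the 24 h Nnm arrays in 6 genes and above in 1, against 7.07% and 5.65% of all genes. MRPL58 changed by -0.47 over that interval (adjusted p = 0.287) and MRPS27 by 0.36 (adjusted p = 0.372).

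Promoter sequences of 68 of the 76 genes were found in the RefSeq table for GRCh38.p14, each running from 250 bases before to 50 after the gene's start. Such promoters are known for sites of ETS-family factors, among them GABPA, and of NRF1 and YY1. The ETS letters CCGGAAG occurred on either strand in 29 of the 68 (42.6%), against 20.2% of the promoters of all genes tested and 10.3% of all promoters in the table. The YY1 core AAGATGG was in 22 (32.4%, against 7.84% and 5.84%), the NRF1 core TGCGCA in 14 (20.6%, against 14.2% and 8.24%), and the E-box CACGTG in 6 (8.82%, against 10.7% and 7.26%). Genes that fell over both times held the ETS letters in 17 of 37 promoters (45.9%) and the others in 12 of 31 (38.7%), so the letters were spread over both. The NRF1 core was in 4 of 37 (10.8%) and 10 of 31 (32.3%), and the YY1 core in 12 of 37 (32.4%) and 10 of 31 (32.3%). Overlap between motifs was not counted, and these shares were not tested. The promoters below are those of MRPL58, MRPL54 and MRPS22, which fell and hold 2, 1 and 3 ETS matches, of MRPL12, which fell and holds 0, and of MRPL45, which did not fall and holds 0. They lie on the plus strand at chr17:75012420-75012719, chr19:3762432-3762731, chr3:139343744-139344043, chr17:81703117-81703416 and chr17:38296918-38297217, in the same order. Capitals mark the ETS letters, read on either strand.
MRPL58: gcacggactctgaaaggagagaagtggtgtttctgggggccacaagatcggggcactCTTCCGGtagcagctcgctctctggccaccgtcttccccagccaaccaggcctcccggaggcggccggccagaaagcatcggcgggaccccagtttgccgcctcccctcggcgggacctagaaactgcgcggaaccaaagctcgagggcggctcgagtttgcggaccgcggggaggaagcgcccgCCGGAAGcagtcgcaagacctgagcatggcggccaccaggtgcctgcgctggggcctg
MRPL54: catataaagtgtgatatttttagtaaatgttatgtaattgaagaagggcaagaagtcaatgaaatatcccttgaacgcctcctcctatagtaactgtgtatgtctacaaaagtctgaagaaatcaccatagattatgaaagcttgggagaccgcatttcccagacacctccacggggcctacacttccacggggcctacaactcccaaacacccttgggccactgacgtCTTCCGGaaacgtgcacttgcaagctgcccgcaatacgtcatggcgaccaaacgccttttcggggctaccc
MRPS22: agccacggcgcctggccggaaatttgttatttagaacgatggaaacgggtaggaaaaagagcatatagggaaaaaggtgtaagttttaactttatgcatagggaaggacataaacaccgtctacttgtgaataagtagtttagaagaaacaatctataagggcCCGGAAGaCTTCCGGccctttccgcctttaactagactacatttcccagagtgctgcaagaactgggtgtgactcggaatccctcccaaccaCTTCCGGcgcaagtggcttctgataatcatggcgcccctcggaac
MRPL12: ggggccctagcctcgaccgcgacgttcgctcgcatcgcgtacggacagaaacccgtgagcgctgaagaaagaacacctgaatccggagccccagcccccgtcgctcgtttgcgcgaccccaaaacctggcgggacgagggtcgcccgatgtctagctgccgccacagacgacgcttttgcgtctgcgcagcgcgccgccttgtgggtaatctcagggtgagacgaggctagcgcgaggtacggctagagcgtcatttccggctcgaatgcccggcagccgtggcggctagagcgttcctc
MRPL45: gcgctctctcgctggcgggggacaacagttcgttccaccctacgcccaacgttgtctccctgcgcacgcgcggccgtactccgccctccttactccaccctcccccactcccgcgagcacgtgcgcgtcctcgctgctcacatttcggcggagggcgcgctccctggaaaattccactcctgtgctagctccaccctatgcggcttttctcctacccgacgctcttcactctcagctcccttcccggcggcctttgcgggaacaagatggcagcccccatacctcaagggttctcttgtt
A match describes these letters only, and binding was not measured.

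The known regulators of such promoters moved in both directions. GABPA, the DNA-binding subunit of the factor GABP, read 8.20, 7.68 and 8.31 in Nnm cells and 7.26, 7.02 and 7.11 in control cells at 24 h, and 8.07, 7.72 and 7.83 in Nnm cells and 6.89, 7.18 and 7.16 in control cells at 48 h. It rose without overlap at both times (0.93, adjusted p = 0.00873, and 0.80, adjusted p = 0.0165). NRF1 rose at 48 h, with 7.36, 7.34 and 7.53 in Nnm cells and 6.68, 6.31 and 6.62 in control cells (0.88, adjusted p = 0.0114, but 0.327 when its probe sets were averaged), and changed by 0.16 at 24 h (adjusted p = 0.517). GABPB1, the partner of GABPA, rose at 48 h (0.62, adjusted p = 0.0175). PPRC1, a coactivator of mitochondrial biogenesis, fell at both times (-0.94, adjusted p = 0.00657, and -0.61, adjusted p = 0.0263). PPARGC1A, its relative, fell at 24 h (-0.99, adjusted p = 0.025), with Nnm replicate 2 at 8.04 beside 7.23 and 7.21 in the other Nnm cultures and 8.76, 8.40 and 8.30 in control cells. MYC fell at 48 h (-0.66, adjusted p = 0.0268). YY1 changed by 0.23 at 24 h and 0.31 at 48 h (adjusted p = 0.132 and 0.0673). Over both times YY1 rose (0.27, adjusted p = 0.0153), but not when its probe sets were averaged (adjusted p = 0.997). Of the 8 regulators listed, 2 fell and 1 rose at 24 h, and 2 fell and 3 rose at 48 h, against 8.85% of all genes lower and 10.6% higher at 24 h and 5.34% and 8.45% at 48 h. With the replicate block 2 fell and 1 rose at 24 h, and 3 fell and 4 rose at 48 h. In that fit 18.8% of all genes were lower and 20% higher at 24 h, and 13.7% and 18.5% at 48 h.

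The share of all genes tested that was called was 8.85% lower and 10.6% higher at 24 h, and 5.34% lower and 8.45% higher at 48 h, and the lists of proteins that work with or build the mitochondrial ribosome are read against these. The list of 15 translation factors was drawn broadly and also holds LRPPRC, SLIRP and OXA1L. Of these 15 genes 8 fell and 3 rose at 24 h, and 5 fell and 1 rose at 48 h. The falls include SLIRP at 24 h (adjusted p = 0.0263) and LRPPRC at 48 h (adjusted p = 0.0423). With the replicate block the counts were 9 and 3, then 7 and 2. The block shares of all genes were 18.8% and 20%, then 13.7% and 18.5%. GFM1, the elongation factor that moves the ribosome along, read 9.57, 10.03 and 9.66 in Nnm cells and 10.42, 10.70 and 10.76 in control cells at 24 h (-0.87, adjusted p = 0.0276, and -0.83 at 48 h, adjusted p = 0.0405). TUFM, which delivers aminoacyl-tRNA, fell by 0.71 and 0.67 (adjusted p = 0.0296 and 0.0441, and 0.0534 and 0.0599 without the Nnm replicate 2 arrays). MTRF1, a release factor, rose at both times, with 6.77, 6.99 and 6.90 in Nnm cells and 5.73, 5.97 and 5.77 in control cells at 24 h (1.06, adjusted p = 0.00496, and 0.65 at 48 h, adjusted p = 0.0181). The initiation factors MTIF2 and MTIF3 rose at 24 h (0.53 and 0.47, adjusted p = 0.0237 and 0.0224). Of 29 assembly and RNA modification proteins 9 fell and 1 rose at 24 h, and 5 fell and 1 rose at 48 h. With the replicate block 16 fell and 3 rose at 24 h, and 9 fell and 1 rose at 48 h, where 18.8% and 20% of all genes were called at 24 h and 13.7% and 18.5% at 48 h. C1QBP, a matrix protein needed for mitochondrial translation, fell at both times (-0.77, adjusted p = 0.0103, and -0.63, adjusted p = 0.0227), and YBEY, an endoribonuclease, was the one that rose (0.36, adjusted p = 0.0269, and 0.40, adjusted p = 0.0231), though not with the mean of its probe sets (adjusted p = 0.0857 and 0.13). Among 10 genes of mitochondrial transcription and DNA maintenance, TWNK, the DNA helicase, and SSBP1, the single-strand binding protein, fell at 24 h (-1.03 and -0.71, adjusted p = 0.00804 and 0.0164). By the main fit 0 passed at 48 h. With the replicate block 4 fell and 1 rose at 24 h, and 2 fell and 0 rose at 48 h. Those 2 were TWNK and SSBP1 (-0.60 and -0.38, block adjusted p = 0.0382 and 0.0449). Of 4 further ribosomal proteins under other symbols, GADD45GIP1 and PTCD3 fell at 24 h (-0.75 and -0.70, adjusted p = 0.0338 and 0.0264) and DAP3 at 48 h (-0.46, adjusted p = 0.0282). With the replicate block 3 of the 4 fell and 0 rose at each time. GADD45GIP1 and PTCD3 then passed at 48 h too (-0.56 and -0.50, block adjusted p = 0.011 and 0.0288). The DAP3 call was lost when its probe sets were averaged (adjusted p = 0.398) and without those that may match several transcripts (adjusted p = 0.809).

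Calls in these companion lists also hung on single arrays at a single time. Of 28 calls at 24 h those of GABPA, MTFMT, MTRF1, PPRC1 and TWNK held with any 1 array left out, and of 18 at 48 h that of NRF1 did. Averaged over both times 36 of 39 calls did. How many calls among all genes held in these fits is not given here. With no filter on dim probe sets, among the companion genes given with values, GFM1 and TUFM missed the threshold at both times. GADD45GIP1, PPARGC1A and PTCD3 did so at 24 h and MYC at 48 h (adjusted p from 0.0528 to 0.0946). Other calls were lost too, such as MTG1 at 24 h and TRUB2 at 48 h (adjusted p = 0.0791 and 0.0749). At 24 h 23 of the 28 were lost without control replicate 3 and 21 without Nnm replicate 1 or Nnm replicate 3. At 48 h 17 of the 18 were lost without replicate 3 of the Nnm or of the control arrays.

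**Figure D5:**
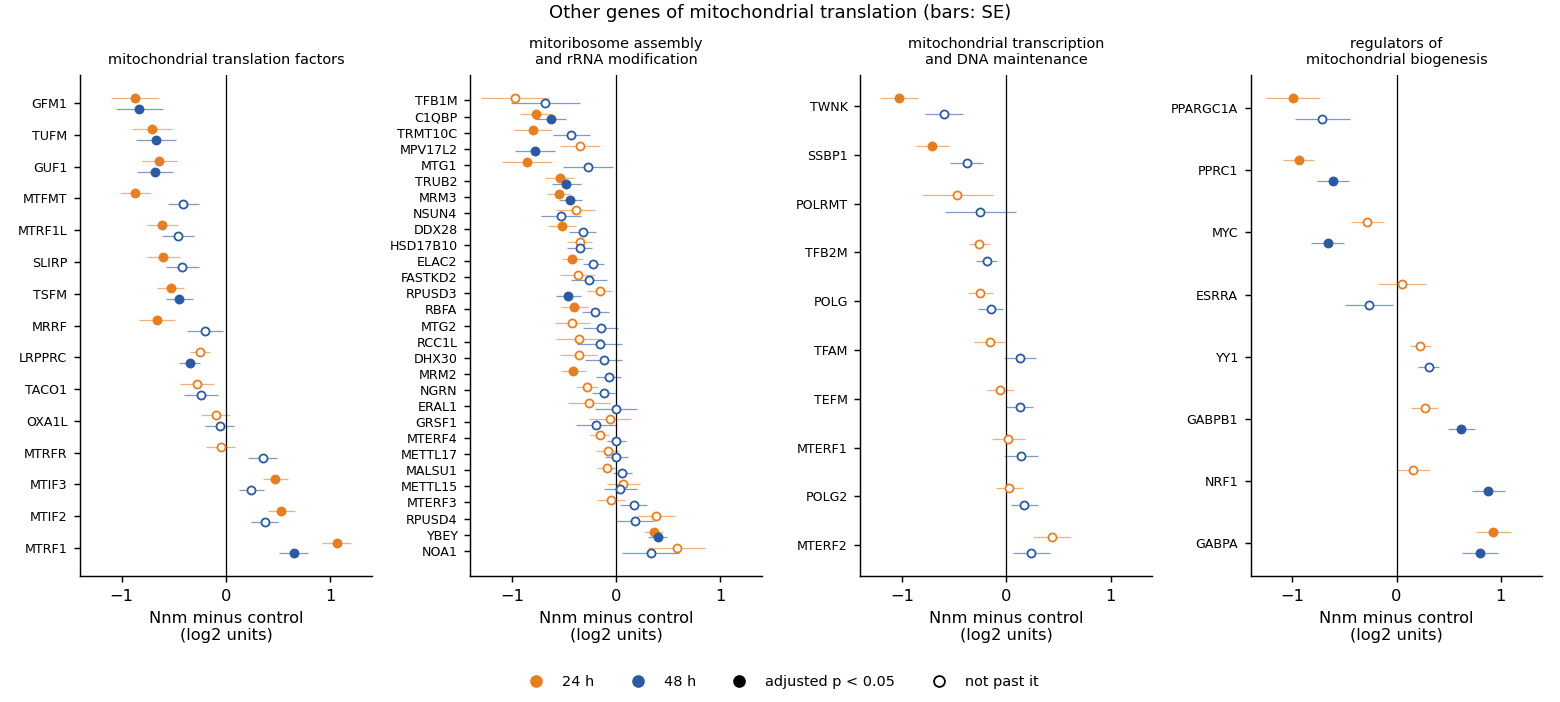
Change with Nnm against control (log2 units) at 24 h (orange) and 48 h (blue) for the genes of 4 companion lists. Bars are standard errors, and filled points passed the limma threshold. GABPA and MTRF1 lie above 0 at both times (0.93 and 1.06 at 24 h), and GFM1, TUFM and PPRC1 below it.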

How the data were processed

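Total RNA from HK-2 cultures was labelled and hybridised to Affymetrix arrays, 1 array per culture, per the labels' protocols. The deposited values are expression values on a log scale made by the authors with GCRMA, per the submitters' processing notes, and they were read as log2 from their range. The sources used here do not say which arrays were normalised together. Of 54675 probe sets, 41091 carry 1 gene symbol in the platform annotation, 1801 carry several and 11721 are not listed. Probe sets with 1 symbol and a log2 value over 4 on at least 3 arrays were kept (19832), and each gene was read from the one with the highest mean. All 12 arrays entered 1 limma model of the 4 group means (limma 3.58.1, R 4.3.3), with Benjamini-Hochberg adjustment over 10907 genes and a threshold of 0.05. Changes are log2 differences, Nnm minus control or later minus earlier time.

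Same-numbered arrays correlated at 0.318 to 0.696 in their deviations from group means (18 pairs) and others at -0.587 to 0.119 (36 pairs). The numbers thus pair the arrays, and a fit with the number as a block is given for set counts and some single genes. Named genes were the 8 falls and 4 rises with the smallest p past the threshold at each time, the 3 with the smallest p each way over both times, the 2 with the smallest p in each comparison of times, and the 2 per subunit nearest to 0. MRPS12, MRPS22, MRPL47 and companion genes beyond the 4 with the smallest p in their list were added after their values were seen. The NRF1 and YY1 letters were shortened to their cores after longer forms had been counted. The members, lists and tests were chosen with earlier results of these data known. The fit was also run on simulated data with independent arrays, which lack the pairing of these arrays, so no result here rests on it. Figures used matplotlib 3.10.9 and Python 3.11.15. MRPS24, MRPL53 and MRPS31P5 lie only on probe sets shared with another gene and were not tested as members.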

Additional observations from a re-analysis of the deposited data

Results flagged for a closer look

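MRPL44, a large subunit protein related to ribonucleases, moved in opposite directions at the 2 times in every pair of arrays with the same number. Nnm minus control lay between -0.19 and -0.04 at 24 h and between 0.07 and 0.20 at 48 h. The difference between the changes was 0.22, which did not pass the limma test (adjusted p = 0.882), and another probe set of the gene changed by -0.08 at 48 h.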

How the results depend on the processing

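All values in this paragraph count genes past the limma threshold unless said otherwise. Calls among all genes also moved with the setting. At 48 h 5.34% of them were lower and 8.45% higher in the main fit. The shares were 13.7% and 18.5% with the replicate block, and 12.5% and 16.4% without both Nnm arrays of number 2. For the other settings they are not given here, so those counts are not a result about the members. At 24 h (31 genes) the count was 17 with no filter on dim probe sets, 52 with array weights, 9 with the 2 groups fitted alone, and 10 with probe sets ending in _s_at or _x_at left out, where 40 genes were tested. It ranged from 1 to 38 with 1 array left out. At 48 h (12 genes) the count was 29 with array weights, 30 with the replicate block, 1 with the groups alone and 23 without both Nnm arrays of number 2, and it ranged from 0 to 23 with 1 array left out. Over both times (43 genes) it was 23 without the _s_at and _x_at probe sets and 31 to 48 with 1 array left out. Array weights gave 3 for Nnm at 48 h against 24 h, and the replicate block gave 9 for the controls at 48 h against 24 h. These 2 time comparisons and the difference between times gave 0 with any 1 array left out. The large minus small difference of medians at 24 h was -0.02 after quantile normalisation, -0.10 with array weights, -0.23 without the _s_at and _x_at probe sets and 0.01 with subunits by structure (0.11 at 48 h), and it ranged from -0.08 to 0.04 with 1 array left out (-0.04 to 0.05 at 48 h). Medians ranged from -0.43 to -0.33 at 24 h and from -0.32 to -0.18 at 48 h with 1 array left out. Added after the data were seen, leaving out all 4 arrays of number 2 gave 21 at 48 h and a large minus small difference of 0.11, and a replicate block within each time gave 11 at 24 h and 7 at 48 h. Fits of fewer arrays have fewer residual degrees of freedom, and the causes of the differences between settings were not tested. Among the single genes named, 0 changes reversed sign past the threshold. Only 3 arrays a group limit the precision, signal over background was not analysed here, and 45 members were read from a probe set that may match several transcripts.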

Other observations

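Probe sets shared between a mitochondrial ribosomal protein gene and another gene were tested among 22736 kept probe sets and cannot be assigned to either gene. The probe set of MRPS31P5 and THSD1 changed by -1.20 at 24 h (limma, adjusted p = 0.025) and by -0.61 at 48 h (adjusted p = 0.184). The probe set of MRPL51 and SPTLC1 changed by -0.71 (adjusted p = 0.0342) and -0.33 (adjusted p = 0.277). That of MRPS24 and URGCP-MRPS24 changed by 0.23 and 0.24 (adjusted p = 0.124 and 0.133), and that of MRPL53 and CCDC142 by -0.16 and 0.20 (adjusted p = 0.442 and 0.353).

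MRPL46, a large subunit gene, and MRPS11, a small subunit gene, start head to head with overlapping promoters. Both changed by -0.19 at 24 h, and by -0.05 and -0.21 at 48 h, and neither passed the threshold over both times (adjusted p = 0.348 and 0.174).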
